A study of Rattus norvegicus with 9 samples.

Results

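Corticosteroid-responsive genes and metallothioneins were followed in kidney tissue as a group of 7 genes fixed by identifier: Fkbp5 (ENSMUSG00000024222), Tsc22d3 (ENSMUSG00000031431), Sgk1 (ENSMUSG00000019970), Zbtb16 (ENSMUSG00000066687), Mt1 (ENSMUSG00000031765), Mt2 (ENSMUSG00000031762) and Cdkn1a (ENSMUSG00000023067). Of these, 6 were among the 17862 features listed for every library, and Mt2 was not analysed here. The 9 libraries of ribosomal RNA-depleted total RNA fell into 3 groups of 3, all from animals aged 6 weeks: kidneys of hypertensive animals that received Qingda granule, a Chinese herbal preparation (QDG), kidneys of untreated hypertensive animals (Model), and kidneys of normal animals (WT). The sources used here do not name the strain, any allele carried, the origin of the hypertension, or the granule's dose and duration, so hypertension and other traits of these animals cannot be told apart. They also do not say that the 3 libraries of a group stem from different animals, and the p-values may therefore rest on technical spread alone. The organism is labelled as the brown rat, while 17553 of the features carry Ensembl identifiers with the mouse prefix. Gene symbols are those of the list that defined the group, because the files hold identifiers alone. For the same reason the labelled tissue could not be checked against marker genes.

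Glucocorticoids act through a nuclear receptor that is held in the cytosol by chaperones, enters the nucleus when the hormone binds, and switches on a set of genes within hours. Fkbp5 encodes an immunophilin co-chaperone that lowers the hormone binding of the receptor and so closes a feedback loop, Tsc22d3 encodes the leucine zipper protein GILZ that carries part of the anti-inflammatory action, and Zbtb16 encodes the zinc finger repressor PLZF. Sgk1 encodes a kinase that, in the aldosterone-sensitive distal nephron, keeps epithelial sodium channels at the cell surface by inhibiting the ubiquitin ligase Nedd4-2, and both glucocorticoids and mineralocorticoids induce it. Mt1 and Mt2 encode small cysteine-rich proteins that bind zinc, copper and cadmium, and are induced by metals through the factor MTF-1, by oxidative stress and by glucocorticoids. Cdkn1a encodes p21, an inhibitor of cyclin-dependent kinases that p53 and other signals induce and that halts the cell cycle in injured tubule cells.

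The sequences before an annotated start are shown for Mt1 and Cdkn1a, the only ones of the 5 genes searched in which an element named below was found. These sequences are from RefSeq's rat genome (GRCr8), matched by symbol, which gave 9 windows for 5 of the 7 genes (Fkbp5, Tsc22d3, Sgk1, Mt1 and Cdkn1a). The measured genes carry mouse identifiers, and 0 of the listed identifiers matched the rat table. The windows may therefore not be those of the measured features. Mt1 is given over its 250 upstream bases, chr19:10832976-10833225 on the minus strand, and Cdkn1a over 138 bases, chr20:7150682-7150819 on the plus strand, up to the first annotated base of the gene. Capitals mark the core of the metal response element in Mt1 and an exact p53 half-site in Cdkn1a.
Mt1: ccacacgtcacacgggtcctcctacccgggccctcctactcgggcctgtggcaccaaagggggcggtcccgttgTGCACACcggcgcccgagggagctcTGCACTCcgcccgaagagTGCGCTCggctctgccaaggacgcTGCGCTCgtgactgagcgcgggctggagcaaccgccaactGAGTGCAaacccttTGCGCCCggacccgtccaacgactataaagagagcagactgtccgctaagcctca
Cdkn1a: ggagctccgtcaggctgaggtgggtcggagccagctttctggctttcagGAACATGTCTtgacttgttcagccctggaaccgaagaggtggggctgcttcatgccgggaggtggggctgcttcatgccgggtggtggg
The metal response element core was searched as TGCACNC and TGCGCNC on both strands and occurred at 6 places without overlap in Mt1, the farthest 176 bases before the start, whereas 20.6% of the 33469 rat windows of 250 bases held any and 0.0269% held 6 or more. The p53 half-site consensus, which reads the same on both strands and was counted once per position, occurred once in Cdkn1a, 201 to 192 bases before the start of the window's transcript, and in 6.64% of all windows. The glucocorticoid receptor half-site AGAACA, searched on both strands, was in none of the 9 windows of the 5 genes and in 17.5% of all windows. The full glucocorticoid response element, a pair of such half-sites facing each other across 3 bases, was also in none of the 9 and in 0.012% of all. A match is a string of letters and not an occupied site, and the absence of one describes this window alone.

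Values are FPKM, reads or fragments scaled to feature length and library total, and whole reads could be recovered from their steps. Library totals implied by these steps lay between 26.2 M and 31.4 M, and the 6 genes were covered by 38 (Zbtb16 in Model 2) to 7114 reads (Mt1 in Model 3). Differences are on the scale of log2(FPKM + 1), which understates changes of low values, and come from limma fitted to all 9 libraries over the 12187 features that averaged 1 FPKM or more, with two-sided p adjusted by the Benjamini-Hochberg method over all of them. A gene is said to have risen or fallen where the adjusted p is under 0.05. Of the 6 genes, 5 passed the limit of 1 FPKM, and Zbtb16 stood just under it with a mean of 0.998 FPKM, so its tests are from a fit to all 17862 features. In bulk tissue, fewer cells of a type and less RNA per cell cannot be told apart.

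Cdkn1a was the gene of this group whose values set the untreated hypertensive kidneys apart from both other groups. Its level rose in Model kidneys relative to WT, and in QDG kidneys its values overlapped those of WT and lay below every Model value, a difference from Model that did not pass after adjustment. The genes known first for their response to corticosteroids, Fkbp5, Tsc22d3, Sgk1 and Zbtb16, and the metallothionein gene Mt1 did not pass in any comparison. Each of them, and Cdkn1a too, differed among the libraries of a group more than most features of similar level. Levels per length ordered the group as Mt1, Sgk1, Tsc22d3, Fkbp5, Cdkn1a and Zbtb16, with means over the 9 libraries of 117, 33.3, 21.1, 11.3, 3.33 and 0.998 FPKM. All 9 libraries kept this order. Mt1 stood above 97.5% of the listed features and Zbtb16 above 31.7%.

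**Figure D1:**
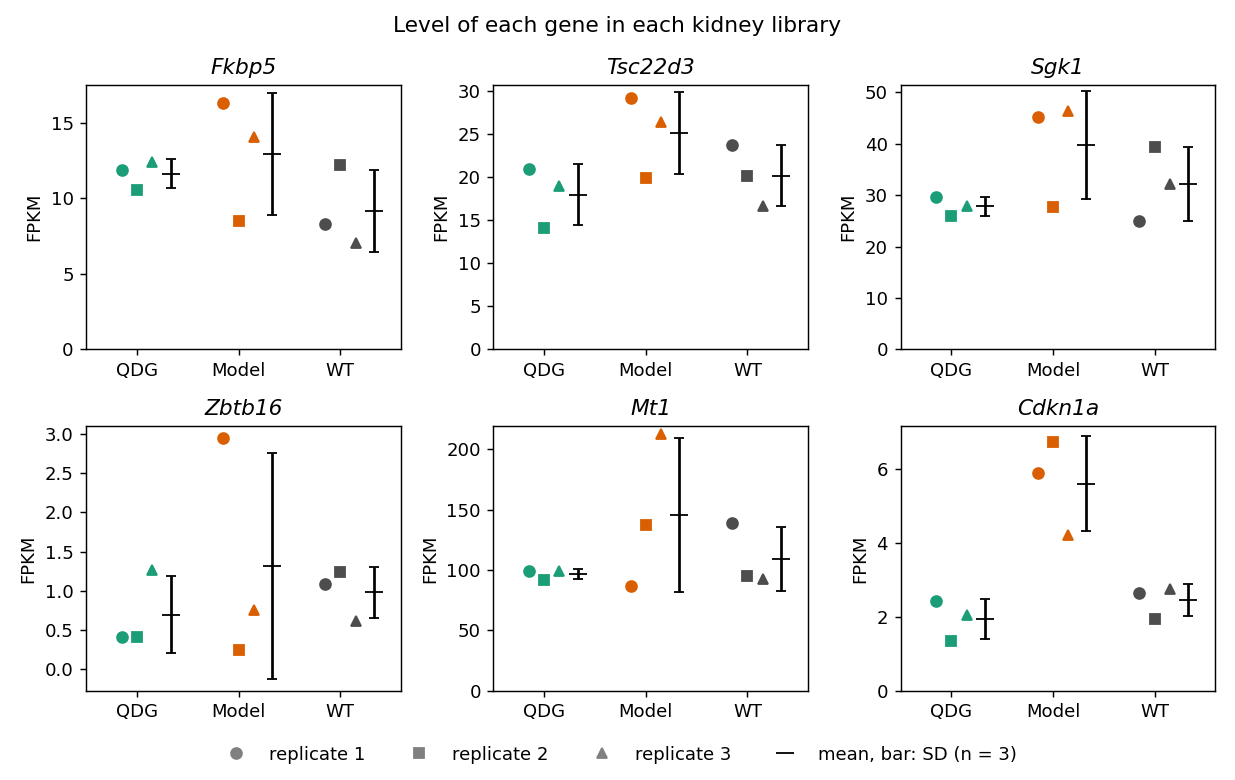
FPKM of each gene (vertical axes, one scale per gene) in the 9 kidney libraries, by group (QDG, Model, WT), with the mean and SD of 3 beside the points and the marker shape giving the replicate number. Cdkn1a is the panel in which the Model points, 4.22 to 6.73 FPKM, lie above all points of the other groups, and Model 1 stands alone at 2.95 FPKM for Zbtb16.

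Cdkn1a stood at 2.44, 1.36 and 2.04 FPKM in QDG kidneys 1 to 3, at 5.89, 6.73 and 4.22 FPKM in Model kidneys, and at 2.65, 1.95 and 2.74 FPKM in WT kidneys. All 3 Model values lay above all values of the other groups, while QDG and WT overlapped. Group means were 1.94 ± 0.547 FPKM in QDG, 5.61 ± 1.28 FPKM in Model and 2.45 ± 0.436 FPKM in WT (SD, n = 3 each), from 141 to 717 reads per library. The Model mean was 2.29 times the WT mean, and the QDG mean was 0.346 times the Model mean.

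For Model against WT, Cdkn1a rose by 0.93 on the log2 scale (SE 0.18, 95% interval 0.53 to 1.33; limma adjusted p = 0.0204). It was called higher together with 6.01% of all tested features, and 1.90% were called lower. Under quantile normalization 431 features were higher and 283 lower, against 732 and 231 with the deposited values, and Cdkn1a stayed higher (0.93; limma adjusted p = 0.0253). The call was lost without WT 2 (0.82; limma adjusted p = 0.0640) and without Model 1 (0.89; limma adjusted p = 0.0609). Groups that did not overlap, with Model higher, occurred in 17.3% of features.

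For QDG against Model, Cdkn1a differed by −1.17 (SE 0.18, 95% interval −1.57 to −0.77) and did not pass (limma adjusted p = 0.156). Ordered by p, it was number 4 of the 12187 features. In this comparison 0% of features were called by limma, with a lowest adjusted p of 0.0707, and voom on recovered reads also called 0. An unadjusted p under 0.05 with QDG lower was reached by 9.64% of features, and 16.3% had all QDG values below all Model values. The difference was negative in every one of 18 alternatives, between −1.55 and −1.01, and the limma adjusted p ranged from 0.0885 to 0.582. For QDG against WT the difference was −0.24 with a 95% interval of −0.64 to 0.16 (limma adjusted p = 0.473). The comparisons of QDG with Model and of Model with WT share the Model libraries, so their opposite signs are not independent.

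**Figure D2:**
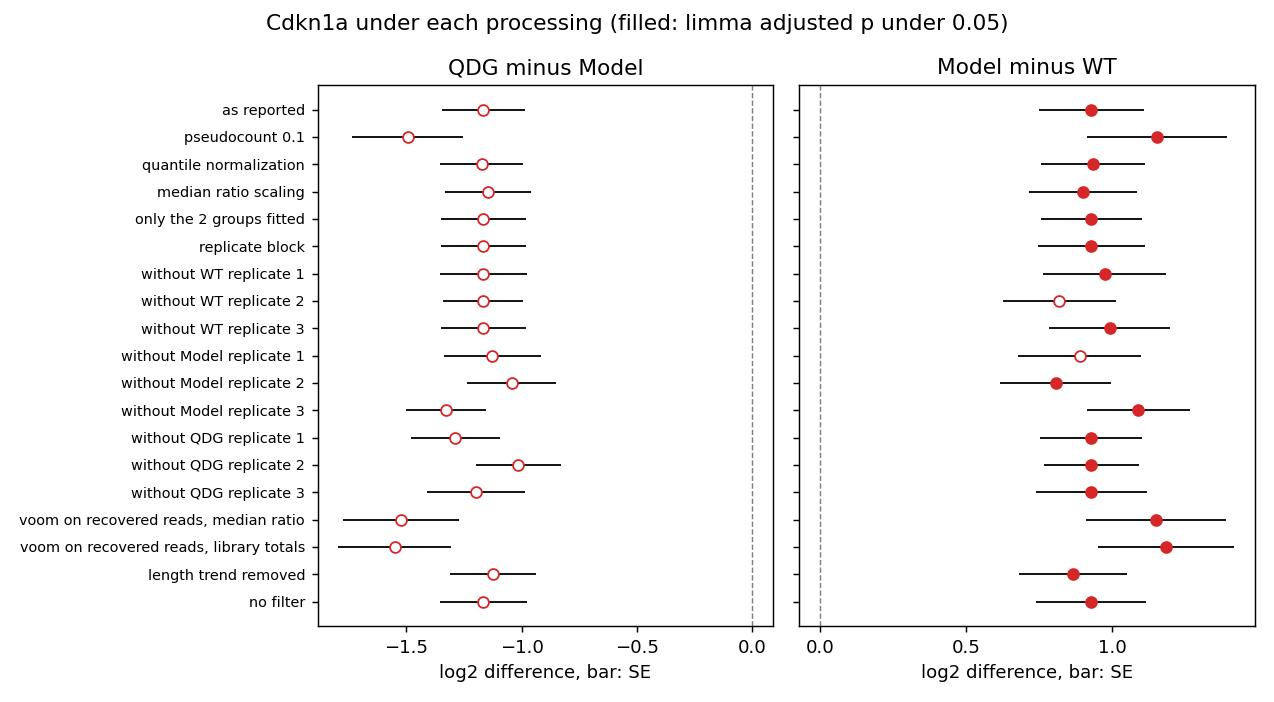
Log2 difference of Cdkn1a (horizontal axes, bars are the SE) as reported and under 18 alternatives (rows), for QDG minus Model and Model minus WT, with filled points where the limma adjusted p was under 0.05. All values keep their sign, between −1.55 and −1.01 for QDG minus Model and between 0.81 and 1.18 for Model minus WT, and open points in the Model minus WT panel are the fits without WT 2 and without Model 1.

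Fkbp5, the co-chaperone of the receptor, stood at 11.9, 10.6 and 12.4 FPKM in QDG kidneys, at 16.3, 8.49 and 14.1 FPKM in Model kidneys and at 8.29, 12.2 and 7.03 FPKM in WT kidneys. Model 1 and Model 3 were the highest of all 9 libraries, Model 2 lay among the lowest 3, and all groups overlapped. Means were 11.6 ± 0.955, 13.0 ± 4.03 and 9.19 ± 2.71 FPKM in QDG, Model and WT (SD, n = 3 each). The difference for Model against WT was 0.44 (95% interval −0.07 to 0.95; limma adjusted p = 0.236), and for QDG against Model it was −0.10 (−0.61 to 0.41; limma adjusted p = 0.863). Without Model 1 the QDG minus Model value turned to 0.08, and neither sign passed. QDG against WT gave 0.34 (−0.17 to 0.85; limma adjusted p = 0.418).

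Tsc22d3, which encodes GILZ, stood at 20.9, 14.1 and 18.9 FPKM in QDG kidneys, at 29.2, 19.9 and 26.5 FPKM in Model kidneys and at 23.8, 20.2 and 16.6 FPKM in WT kidneys. Model 1 and Model 3 were again the highest libraries, and Model 2 lay below QDG 1, WT 1 and WT 2, so the groups overlapped. The means were 18.0 ± 3.53, 25.2 ± 4.77 and 20.2 ± 3.58 FPKM in QDG, Model and WT (SD, n = 3 each). QDG differed from Model by −0.46 (95% interval −0.88 to −0.05; limma adjusted p = 0.325). Model against WT gave 0.30 (−0.12 to 0.72; limma adjusted p = 0.322) and QDG against WT −0.16 (−0.58 to 0.25; limma adjusted p = 0.646).

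Sgk1, the kinase of the sodium channel pathway, stood at 29.7, 25.9 and 27.9 FPKM in QDG kidneys, at 45.2, 27.7 and 46.3 FPKM in Model kidneys and at 25.0, 39.4 and 32.2 FPKM in WT kidneys. Model 3 and Model 1 were the highest libraries, and Model 2 lay inside the narrow QDG range. Means were 27.8 ± 1.87, 39.7 ± 10.4 and 32.2 ± 7.21 FPKM in QDG, Model and WT (SD, n = 3 each). The QDG minus Model difference was −0.46 (95% interval −0.93 to −0.00069; limma adjusted p = 0.359). The other differences were 0.28 for Model against WT (−0.18 to 0.75; limma adjusted p = 0.401) and −0.18 for QDG against WT (−0.65 to 0.28; limma adjusted p = 0.647).

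Zbtb16, the PLZF repressor, was scarce and uneven, at 0.408, 0.414 and 1.27 FPKM in QDG kidneys, 2.95, 0.240 and 0.762 FPKM in Model kidneys and 1.09, 1.24 and 0.615 FPKM in WT kidneys. The highest and the lowest of the 9 libraries, Model 1 with 448 reads and Model 2 with 38 reads, were both in the Model group and differed 12.3-fold. Group means were 0.697 ± 0.496 FPKM in QDG, 1.32 ± 1.44 FPKM in Model and 0.981 ± 0.326 FPKM in WT (SD, n = 3 each), so the spread among Model kidneys exceeded every difference between means. The log2 difference was 0.06 for Model against WT (95% interval −0.76 to 0.89; limma adjusted p = 0.939), −0.31 for QDG against Model (−1.13 to 0.51; limma adjusted p = 0.765) and −0.25 for QDG against WT (−1.07 to 0.58; limma adjusted p = 0.768). Both directions turned without Model 1, to −0.41 for Model against WT and 0.16 for QDG against Model. The value for Model against WT also turned without WT 3 (−0.08), with a pseudocount of 0.1 (−0.12) and with voom on recovered reads (−0.19 and −0.20).

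**Figure D3:**
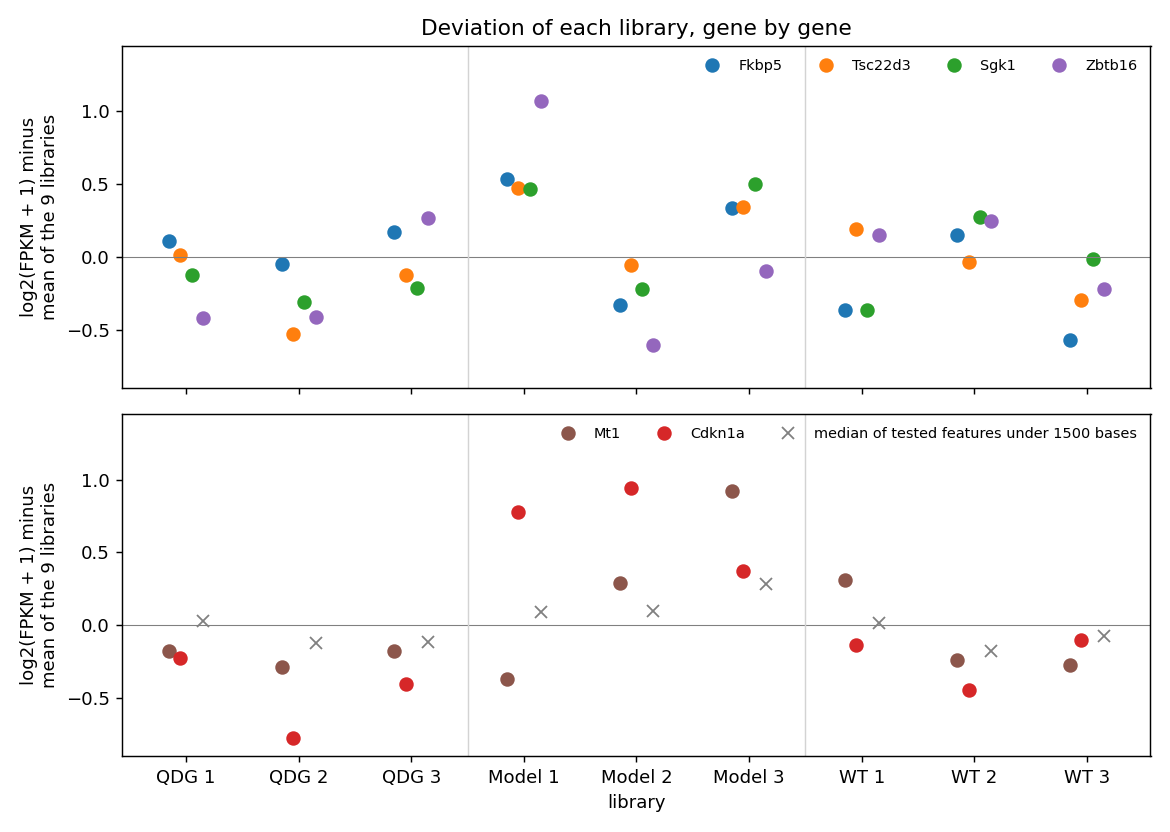
Deviation of log2(FPKM + 1) from the mean of the 9 libraries (vertical axes) for each library (horizontal axis), for the genes first known for their corticosteroid response above and for Mt1 and Cdkn1a below, where crosses give the median of the tested features under 1500 bases. Model 1 is high for Fkbp5, Tsc22d3, Sgk1 and Zbtb16 (0.47 to 1.07) and Model 2 is low for them (−0.60 to −0.05), while Cdkn1a is highest in Model 2 (0.94) and Mt1 in Model 3 (0.92).

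Library by library, the corticosteroid-responsive genes did not follow the order of Cdkn1a within the Model group. Model 2 was the lowest of the Model kidneys for Fkbp5, Tsc22d3, Sgk1 and Zbtb16, and the highest for Cdkn1a. Over the 9 libraries, Pearson's r of log2(FPKM + 1) was 0.666 between Fkbp5 and Sgk1, 0.629 between Tsc22d3 and Sgk1, and 0.549 between Fkbp5 and Tsc22d3. With Cdkn1a it was 0.642 for Tsc22d3, 0.407 for Sgk1 and 0.13 for Fkbp5. With Mt1 it was 0.42 for Tsc22d3, 0.385 for Cdkn1a, 0.174 for Sgk1 and −0.0118 for Fkbp5. These values describe 9 points that share libraries and groups, and carry no p. Of the 12186 other tested features, 1085 followed Fkbp5 more closely than Sgk1 did, and 331 followed Sgk1 more closely than Fkbp5 did. Tsc22d3 was followed more closely than by Cdkn1a by 955 features, and more closely than by Sgk1 by 1027. The 3 features most like each gene that passed the limit of 1 FPKM had r of 0.904 to 0.966, and none of them was another gene of the group. Those features carry no symbol in the files, the closest of all being ENSMUSG00000112567 to Cdkn1a (r = 0.966) and ENSMUSG00000038459 to Fkbp5 (r = 0.96).

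Mt1, the metallothionein gene, stood at 99.2, 91.6 and 99.3 FPKM in QDG kidneys, at 86.4, 137 and 213 FPKM in Model kidneys and at 139, 94.97 and 92.5 FPKM in WT kidneys. The Model group held both the lowest library, Model 1, and the highest, Model 3, and the groups overlapped. Group means were 96.7 ± 4.42, 146 ± 63.6 and 109 ± 26.4 FPKM in QDG, Model and WT (SD, n = 3 each). The difference was 0.35 for Model against WT (95% interval −0.28 to 0.97; limma adjusted p = 0.442), −0.49 for QDG against Model (−1.11 to 0.13; limma adjusted p = 0.451) and −0.15 for QDG against WT (−0.77 to 0.48; limma adjusted p = 0.8003). Without Model 1 the values were 0.67 for Model against WT and −0.82 for QDG against Model, and without Model 3 they were 0.03 and −0.17. Metallothionein genes are close copies of each other with pseudogenes in rodent genomes, and the sources used here do not say how shared reads were assigned, so the Mt1 values are uncertain in that respect.

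The Mt1 feature was short, at 1246 bases, while the others measured 3553 (Cdkn1a) to 9468 bases (Fkbp5). The 1893 tested features under 1500 bases had a median deviation of 0.28 in Model 3, the library with the highest Mt1, of 0.09 and 0.10 in Model 1 and Model 2, of −0.12 to 0.03 in QDG and of −0.18 to 0.01 in WT. Mt1 itself deviated by 0.92 in Model 3 and by −0.37 in Model 1. After a smooth trend over length was removed from each library, the Mt1 difference was 0.13 for Model against WT and −0.29 for QDG against Model, and that of Cdkn1a 0.87 and −1.12.

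**Figure D4:**
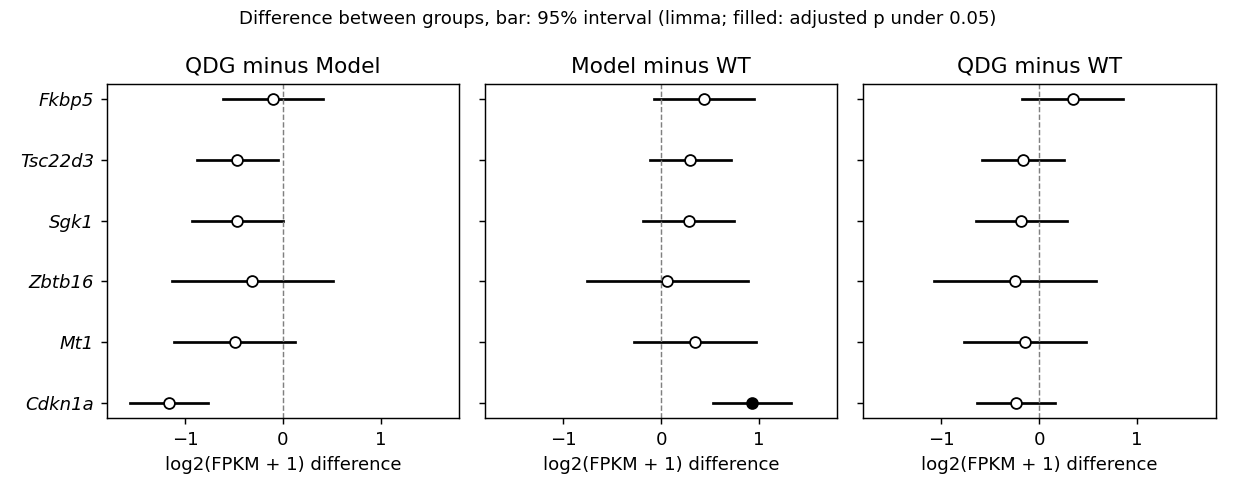
Log2(FPKM + 1) difference (horizontal axes) with its 95% interval for each gene (rows), for QDG minus Model, Model minus WT and QDG minus WT, filled where the limma adjusted p was under 0.05. Cdkn1a in Model minus WT (0.93) is the one filled point, and the intervals of Zbtb16 are the widest.

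Taken as a list, the 5 genes that passed the limit of 1 FPKM held 1 called feature in Model against WT, Cdkn1a, with 0 lower, beside 7.90% of all features called in either direction. All 5 differences were positive there, with a median of 0.35, against 0.02 over all tested features. Their size depended on the scaling. After quantile normalization they were 0.37 (Fkbp5), 0.17 (Tsc22d3), 0.10 (Sgk1), 0.11 (Mt1) and 0.93 (Cdkn1a). Among the 6666 features averaging 5 FPKM or more, 728 were called higher and 155 lower. The share of all features with a positive difference is not given here. In QDG against Model all 5 were negative, with a median of −0.46 against −0.02 over all features, and 0 were called. Quantile normalization gave −0.03 (Fkbp5), −0.36 (Tsc22d3), −0.34 (Sgk1), −0.29 (Mt1) and −1.17 (Cdkn1a). With the deposited values, an unadjusted p under 0.05 was found for 3 of the 5 (Tsc22d3, Sgk1 and Cdkn1a) and for 13.9% of all features. That number was 1, Cdkn1a alone, after quantile normalization and in the fits without Model 3 and without QDG 2, and it was 2 without Model 1, there Mt1 and Cdkn1a. These comparisons share the Model libraries, and a high set of Model values gives opposite signs in both. QDG against WT had 1 positive and 4 negative differences, a median of −0.16 against −0.0012 over all features, and 0 calls beside 2.47% of all features.

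Libraries of a group differed by more than the number of reads alone would give. The coefficient of variation of Fkbp5 was 8.22% in QDG, 31.1% in Model and 29.5% in WT, where the number of reads alone gives 1.78%, 1.70% and 2.04%. For Mt1 it was 4.57%, 43.7% and 24.2%, and for Sgk1 6.73%, 26.3% and 22.4%. For these 3 genes the QDG libraries lay closest together, but not for the other 3. Tsc22d3 varied by 19.6% in QDG, 19.0% in Model and 17.7% in WT, and Zbtb16 by 71.1%, 109% and 33.2%. No test of a difference in spread was made. Cdkn1a varied by 28.2% in QDG, 22.8% in Model and 17.8% in WT, with counting errors of 7.10%, 4.18% and 6.39%.

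**Figure D5:**
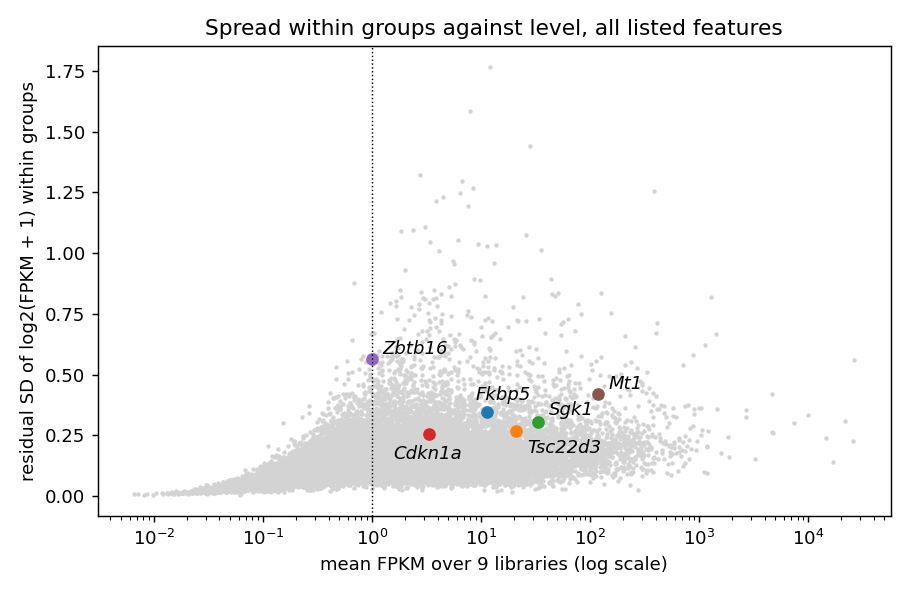
Residual SD of log2(FPKM + 1) within groups (vertical axis) against the mean FPKM over the 9 libraries (horizontal axis, log scale) for all 17862 listed features in grey, with the genes of the group in colour and a dotted line at 1 FPKM. All lie in the upper part of the cloud at their level, Zbtb16 highest at 0.563.

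The SD left within groups on the log2 scale was 0.563 for Zbtb16, 0.42 for Mt1, 0.344 for Fkbp5, 0.303 for Sgk1, 0.268 for Tsc22d3 and 0.257 for Cdkn1a. Among features whose mean was 0.8 to 1.2 times that of the gene, 99.2% had a smaller SD than Zbtb16 (1123 features), 95.3% than Mt1 (190), 94.05% than Fkbp5 (1277), 88.3% than Sgk1 (580), 86.2% than Tsc22d3 (803) and 83% than Cdkn1a (1541). The median SD of those features lay between 0.154 and 0.181. Intervals around the differences were wide, with half-widths of 0.40 (Cdkn1a) to 0.82 (Zbtb16) against a median of 0.29 over all tested features. The scale of log2(FPKM + 1) also understates the spread of low values, and the last place of Cdkn1a depends on it. With a pseudocount of 0.1 its SE was 0.239, above 0.196 for Tsc22d3 and 0.215 for Sgk1. Fkbp5, Mt1 and Zbtb16 stayed above it, at 0.250, 0.282 and 0.689.

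Other genes of these pathways could not be read from the files. Lists of 42 genes of glucocorticoid and mineralocorticoid signalling, 15 of the metal and oxidant response and 20 of the p53 and cell cycle inhibitor group were written in symbols. Of these, 0 could be tied to an identifier, because the table of 47357 rat genes at hand matched 0 of the listed identifiers.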

How the data were processed

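For each of 9 kidney RNA-seq libraries the authors deposited a list of features with 1 value each. The files name no unit, and the deposited values were taken as FPKM, because whole reads could be recovered for 99.96% of features (within 0.0001 read or a relative 2e-07) and feature lengths came out as whole bases (within 0.05) for 99.9% of these. Ribosomal RNA was depleted and NEB Next Ultra libraries were built, per the labels' protocols, and limma is named in the submitters' processing notes. No source used here names the aligner, counter, strand setting, genome build or annotation. Features at 0 in any library were not among those listed. The steps do not tell reads from read pairs, and counting errors cover counting only.

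Genes were taken by identifier. Values were transformed as log2(FPKM + 1), those averaging 1 FPKM or more were kept, and limma 3.58.1 in R 4.3.3 was fitted with an intensity trend to all 9 libraries, 1 group mean each, then tested on simulated data. Named are all genes of the group and, by Pearson's r over the 9 libraries, the features most like them; 2 identifiers of the latter are printed. The genes and lists were chosen with earlier results of these data known. Alternatives were another pseudocount, other limits on the mean, quantile and median-ratio scaling, 2 groups only, a replicate term, each library left out, voom on recovered reads, removal of the length trend and an added 2-fold limit.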

Additional observations from a re-analysis of the deposited data

How the results depend on the processing

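The 6 genes gave 18 differences, each recomputed under 17 to 19 alternatives (333 values), of which 323 kept direction and side of the threshold. Only Cdkn1a in Model against WT passed to begin with. For the other differences, keeping the side means only that they still did not pass. The Cdkn1a call in Model against WT was lost in 2 of the 9 fits that left out a library (0.82 without WT 2, 0.89 without Model 1), and its difference ranged from 0.81 to 1.09 over all 9. A mean of at least 5 FPKM left Cdkn1a and Zbtb16 out. Differences that turned their sign did not pass before or after. They were Zbtb16 in Model against WT with a pseudocount of 0.1 (−0.12), with voom (−0.19 by median ratio, −0.20 by library totals) and with 1 library left out (range −0.41 to 0.43), Zbtb16 (−0.67 to 0.16) and Fkbp5 (−0.36 to 0.076) in QDG against Model, and Mt1 in QDG against WT (−0.25 to 0.043), the last 3 only with a library left out. Causes were not tested. The number of called features was 963 in Model against WT, 121 with an added 2-fold limit, 144 with only the 2 groups fitted and 195 (without Model 3) to 1529 (without WT 3) with 1 library left out. QDG against Model called 0 (1695 at an unadjusted p under 0.05), 1 with only the 2 groups fitted, and with single libraries omitted 0 to 3. For QDG against WT the number was 301, 76 with a 2-fold limit, 515 after quantile normalization, 530 once the length trend was removed, 486 in a fit to only those groups, and, with single libraries omitted, between 39 (QDG 2) and 775 (WT 3). Same-numbered samples did not deviate together (r between −0.331 and 0.143, against −0.235 to 0.427 for different numbers). Deviations from means of 3 cannot show whether a number marks a shared source, and the labels do not say. With a replicate block the calls were 533, 0 and 154, and Cdkn1a kept its difference of 0.93 in Model against WT (limma adjusted p = 0.0377).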
